A study of Mus musculus with 6 samples.

Results

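miR-210 is the microRNA most closely tied to low oxygen: its gene is switched on by hypoxia-inducible factor (HIF). Its 2 mature arms, miR-210-3p (mmu-miR-210-3p in the tables) and miR-210-5p (mmu-miR-210-5p), were followed here through 6 small-RNA libraries of mouse renal cortex. Both were taken by name from tables that list 1900 distinct mature miRNA names, and each has 1 row in every table. The animals were C57BL/6 mice. In the tofogliflozin group, 3 mice ate a diet rich in fat and cholesterol with added bile salt (labelled HF/HC/HS/BA), with tofogliflozin mixed in, for 8 weeks. In the diet-alone group, 3 mice ate that diet without the drug for the same 8 weeks. All 6 animals therefore carried the steatohepatitis-inducing diet, and no library of mice on another diet was analysed here. Tofogliflozin inhibits SGLT2, the cotransporter that reclaims filtered glucose in the proximal tubule.

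When oxygen is plentiful, HIF alpha subunits are hydroxylated and destroyed through the von Hippel-Lindau protein. When it is scarce they persist and switch on genes of glycolysis, vessel growth and red cell production, together with miR-210. The best known targets of the 3p arm include ISCU, an assembly factor for the iron-sulphur clusters of the mitochondrial respiratory chain, so miR-210 is described as turning respiration down in hypoxic cells. The proximal tubule has a high oxygen demand, much of it spent on sodium transport, and SGLT2 carries sodium into its cells together with glucose.

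The sequences are shown because they define what the reads were assigned to and what the 3p arm can pair with. In RefSeq (build GRCm38.p6) the precursor lies on the minus strand at chr7:141221384-141221493, with miR-210-5p at chr7:141221445-141221466 and miR-210-3p at chr7:141221407-141221428. Capitals mark the seed (bases 2 to 8 from the 5′ end) in the mature arms, and the 2 mature arms in the precursor of 110 bases.
miR-210-3p: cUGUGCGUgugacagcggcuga
miR-210-5p: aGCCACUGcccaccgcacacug
mir-210 hairpin: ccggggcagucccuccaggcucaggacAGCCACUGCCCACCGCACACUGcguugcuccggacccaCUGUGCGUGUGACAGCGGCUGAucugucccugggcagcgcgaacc
Neither seed occurs in any other of the 1679 mature names of the RefSeq table, so neither arm has a seed relative there. Each arm is 22 bases long, with a GC content of 63.6% for the 3p arm and 68.2% for the 5p arm. A loop of 16 bases separates them, and 16 base pairs join them in the minimum free energy fold. By GENCODE M21, no other annotated gene overlaps the hairpin. Its nearest neighbours are Rassf7, 2725 bases away, and Phrf1, 7290 bases away, both on the plus strand. The nearest other annotated miRNA gene, Mir7063, is 399207 bases away, so miR-210 is not part of a miRNA cluster.

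Libraries held 6643638 to 22886200 counts after repeated rows of a name were reduced to the largest, the fewest in tofogliflozin replicate 2. That library stood apart: along principal component 1 (52.0% of the variance) it lay at 13.8 while the other 5 libraries lay between -6.17 and 0.141. The labelled tissue was checked against 6 miRNAs listed as kidney tubule markers, which had counts in every library. Together they reached 147542 to 171558 CPM (counts per library size, with TMM scaling) with tofogliflozin and 159899 to 170209 CPM on the diet alone. That sum is mostly miR-10a-5p, miR-192-5p and miR-30a-5p, whereas miR-215-5p was at 1.22 to 2.60 CPM. miR-204-5p was at 462, 492 and 373 CPM with tofogliflozin and at 284, 291 and 250 CPM on the diet alone. Its groups did not overlap, as for 12% of 460 tested miRNAs. Its adjusted p in edgeR's quasi-likelihood test was 0.387, the smallest of that fit. The comparisons between groups below are given with and without tofogliflozin replicate 2.

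miR-210-3p was the arm that carried nearly all reads. It was counted 789, 730 and 499 times in tofogliflozin replicates 1, 2 and 3, and 739, 691 and 826 times in diet-alone replicates 1, 2 and 3. Scaled to library size, it stood at 58.4, 108.9 and 27.6 CPM with tofogliflozin, against 32.5, 50.5 and 53.7 CPM on the diet alone. The highest and the lowest libraries were both from tofogliflozin mice, and all 3 diet-alone libraries fell between them. Counting error was small beside these gaps. The exact Poisson interval of the highest library, tofogliflozin replicate 2, was 101 to 117 CPM and overlapped that of no other library. At the low end, the intervals of tofogliflozin replicate 3 (25.2 to 30.1 CPM) and diet-alone replicate 1 (30.2 to 34.96 CPM) only just missed each other. The intervals of the 3 libraries in the middle, tofogliflozin replicate 1 and diet-alone replicates 2 and 3, overlapped. These intervals cover counting error only and not the spread between mice. The tables carry no molecular identifiers, so copies of 1 molecule cannot be told from separate reads and the intervals may be too narrow.

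**Figure D1:**
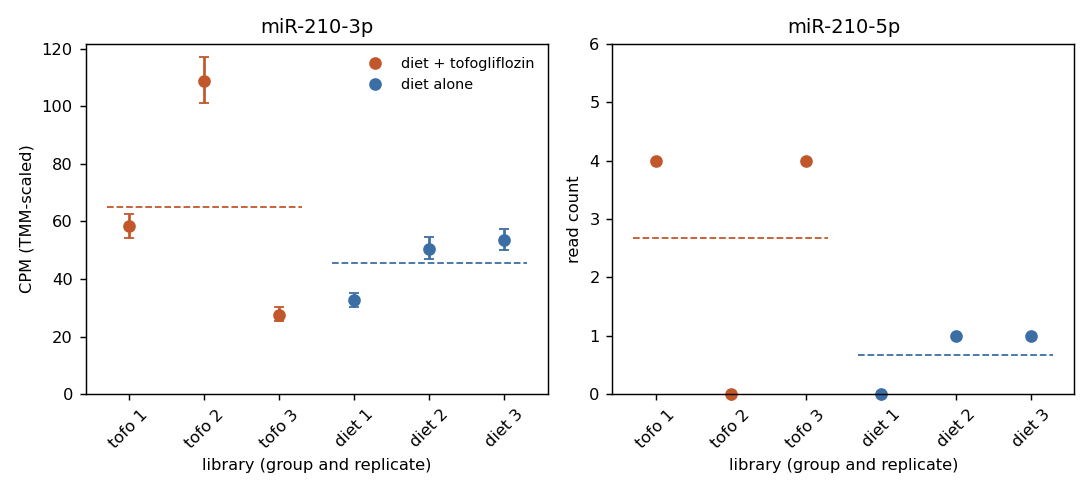
Left, miR-210-3p in CPM per library with 95% Poisson intervals. Right, the read count of miR-210-5p per library. Dashed lines are group means. For miR-210-3p the tofogliflozin libraries range from 27.6 to 108.9 CPM and enclose the diet-alone libraries, at 32.5 to 53.7 CPM. miR-210-5p has at most 4 reads in a library.

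By mean level miR-210-3p was among the more abundant names listed, though far from the top. At 55.3 CPM over the 6 libraries it ranked 157 of 1900 names, between miR-3535 (55.7 CPM) and miR-150-5p (54.2 CPM), a lymphocyte miRNA. Many of the names had no reads, and a library held a count for 696 to 788 of them. Among the 460 tested miRNAs it likewise ranked 157. Its rank within a library ran from 141 in tofogliflozin replicate 2 to 186 in tofogliflozin replicate 3. The renal cortex of these mice thus held enough of it to be counted at least 499 times in every library.

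The main comparison was whether miR-210-3p differed with tofogliflozin. It averaged 64.9 ± 41.0 CPM with tofogliflozin and 45.6 ± 11.4 CPM on the diet alone (SD, n = 3 each). The log2 fold change was 0.50 ± 0.45 (SE), with a 95% interval of -0.54 to 1.54, or a fold between 0.690 and 2.92. In edgeR's quasi-likelihood test the adjusted p was 0.877 (unadjusted p = 0.295), and the exact permutation test of log2 CPM gave p = 0.7, where 3 against 3 mice allow no less than 0.1. The log2 fold change was smaller than the SD of log2 CPM among tofogliflozin mice (0.99), though not than that among diet-alone mice (0.39). Its interval still holds both a lower level and a level more than double. In this fit 0% of the 460 tested miRNAs were called at an adjusted p of 0.05, and 23 (5%) had an unadjusted p under 0.05. DESeq2 called 2 miRNAs (0.435%) and limma-voom 0, with miR-210-3p not among them (adjusted p = 0.961 and 0.956). In whole cortex, fewer cells of a type and less RNA per cell cannot be told apart.

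The sign of the difference rested on 1 mouse. Without tofogliflozin replicate 2, miR-210-3p stood at 58.4 and 27.6 CPM with tofogliflozin, on either side of the 3 diet-alone libraries. The log2 fold change was then -0.085 ± 0.34 (SE), with an interval of -0.89 to 0.72, an adjusted p of 0.967 in edgeR's quasi-likelihood test and an exact permutation p of 0.7 (smallest possible 0.1). In that fit 0% of 488 miRNAs were called, and 23 (4.71%) had an unadjusted p under 0.05. Without tofogliflozin replicate 3, the lowest library, the log2 fold change was 0.90 ± 0.31 (SE; interval 0.21 to 1.60). Its unadjusted p in edgeR's test was then 0.0170 and its adjusted p 0.276, in a fit where 75 of 476 miRNAs (15.8%) had an unadjusted p under 0.05. With any 1 of the other 4 libraries left out, the value lay between 0.34 and 0.65.

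**Figure D2:**
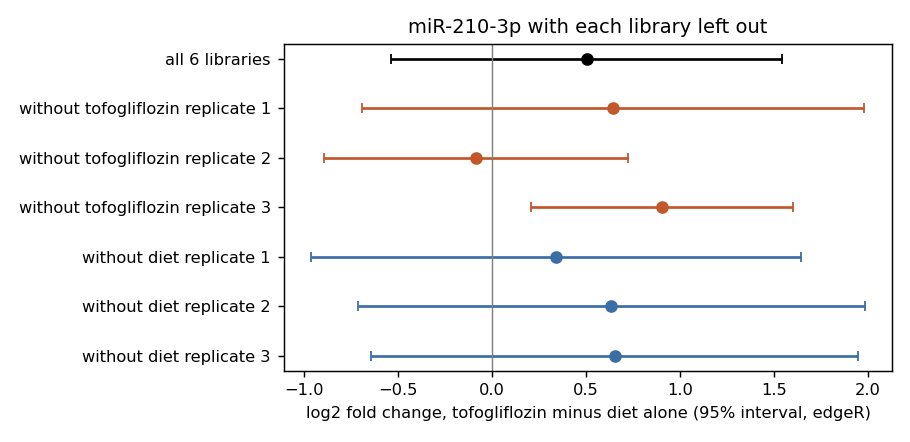
Log2 fold change of miR-210-3p (tofogliflozin minus diet alone, edgeR) with 95% intervals, over all 6 libraries and with each library left out. The value is 0.50 with all libraries, -0.085 without tofogliflozin replicate 2 and 0.90 without tofogliflozin replicate 3. Of the 7 intervals shown, the one without tofogliflozin replicate 3 leaves out 0.

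The spread among the tofogliflozin mice was itself wide. The SD of log2 CPM of miR-210-3p was 0.99 among tofogliflozin mice (0.76 without replicate 2) and 0.39 among diet-alone mice. The median over all tested miRNAs was 0.37 and 0.20, and 7.83% of them spread at least as widely as miR-210-3p among tofogliflozin mice, against 23.5% among diet-alone mice. Tofogliflozin replicate 2 held 2.44 times the mean of the other 5 libraries, a ratio that 25 of the 460 tested miRNAs (5.43%) reached or passed. That library was the highest of the 6 for 33.7% of the tested miRNAs and the lowest for 32.4%, so being highest there is common.

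Library size moved with the level of miR-210-3p. Its raw count differed by 1.66 times between the lowest and the highest library, while library totals differed by 3.44 times, so its CPM was high where the total was low. Across the 6 libraries, log2 CPM and log2 library total had Pearson's r = -0.91 (exact permutation p = 0.0125) and Spearman's rho = -0.89 (exact permutation p = 0.0333). Leaving out the libraries farthest from the median total, tofogliflozin replicate 2 and diet-alone replicate 1, gave r = -0.93 and rho = -0.80 over the 4 that remain. This relation was looked for after the values were seen. The same r was computed for all 460 tested miRNAs. Of these, 11 (2.39%) were at or below that of miR-210-3p, and 14 (3.04%) were at least as far from 0 in the opposite direction. An exact permutation p under 0.05 was found for 69 (15%), and the Benjamini-Hochberg adjusted p of miR-210-3p was 0.288. CPM is a count divided by the total, so the 2 axes share a term. Each group has 3 libraries, too few for a value within a group. With log2 library total as a covariate, an alternative chosen after seeing the data, the log2 fold change of miR-210-3p was -0.32 ± 0.23 (SE; adjusted p = 0.954 in edgeR's test), below 0 where the fit without it was above. The part of library size in the result was not tested beyond these values.

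**Figure D3:**
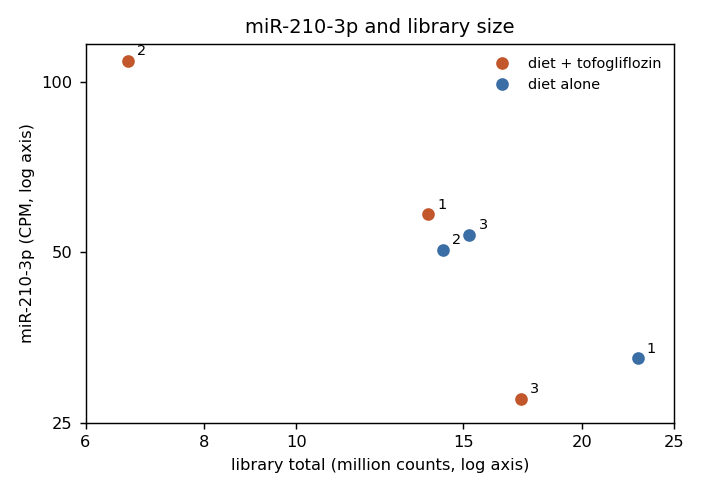
miR-210-3p (CPM) against the library total, both on log axes, 1 point per library labelled with its replicate number. The smallest library, tofogliflozin replicate 2 with 6643638 counts, has the highest level. The 2 largest libraries, tofogliflozin replicate 3 (17241972 counts) and diet-alone replicate 1 (22886200 counts), have the lowest.

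miR-210-5p, the opposite arm of the duplex and usually discarded when the 3p arm is loaded into Argonaute, was close to the detection limit. It was counted 4, 0 and 4 times in tofogliflozin replicates 1, 2 and 3, and 0, 1 and 1 times in diet-alone replicates 1, 2 and 3. The 2 libraries with 4 reads were both from tofogliflozin mice, and the groups overlapped because tofogliflozin replicate 2 had none. A count of 0 (limit 3 counts) allowed up to 0.447 CPM in that small library, above the 0.296 and 0.221 CPM seen in the other 2 tofogliflozin libraries. In diet-alone replicate 1, the largest library, the same limit was 0.132 CPM. The exact 95% intervals of these 2 libraries reached higher, to 0.550 CPM in tofogliflozin replicate 2 and 0.162 CPM in diet-alone replicate 1. Over the summed libraries of a group there were 8 reads with tofogliflozin and 2 on the diet alone, a ratio of 5.57 relative to the summed totals, with an exact interval of 1.11 to 53.8 that covers counting error only and not the spread between mice. Over mice, the exact permutation test of log2 CPM gave p = 0.4. With tofogliflozin replicate 2 left out, both remaining tofogliflozin libraries were above all 3 diet-alone libraries (exact permutation p = 0.1, and no smaller p can come from 2 against 3 mice). In that comparison 9.84% of tested miRNAs were likewise higher with no overlap between groups. miR-210-5p did not pass the filter on low counts and so has no value in the edgeR fit over all miRNAs.

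The share of reads from the 5p arm gives the balance between arms without any scaling, since both counts come from the same library. It was 0.504% and 0.795% in tofogliflozin replicates 1 and 3 (exact 95% intervals 0.138% to 1.29% and 0.217% to 2.02%). In tofogliflozin replicate 2 it was 0 of 730 reads, which allows up to 0.411% by the limit of 3 counts and 0.504% by the exact interval. On the diet alone it was 0 of 739 reads in replicate 1, which allows up to 0.406% and 0.498% by the same 2 limits. It was 0.145% in diet-alone replicate 2 and 0.121% in diet-alone replicate 3. The exact intervals of all 6 libraries overlapped. The mean log2 ratio of 5p to 3p, each with a pseudocount of 1, was -7.82 ± 1.503 with tofogliflozin and -8.89 ± 0.57 on the diet alone (SD, n = 3 each), a difference of 1.07 with an exact permutation p of 0.3. It was 1.91 without tofogliflozin replicate 2 (exact permutation p = 0.1, no smaller value being possible) and 0.48 without tofogliflozin replicate 3. With so few reads and mice, these values do not settle whether the arm balance differed. Over all 6 libraries the 5p arm made up 0.233% of miR-210 reads. Among 151 hairpins with at least 1000 reads over both arms, the lesser arm had a median share of 0.844%, and in 34.4% of them it was at or below that of miR-210.

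Other miRNAs linked to low oxygen were set beside miR-210. The first list holds 12 miRNAs described as raised by hypoxia in cancer cell lines: members of the miR-23, miR-24 and miR-27 clusters, miR-26, miR-103, miR-107 and miR-181. All 12 passed the filter on low counts, 0 were called against 0% of all tested miRNAs, and 7 had a log2 fold change above 0 and 5 below. Their median was 0.10, beside -0.0052 over all tested miRNAs, of which 226 of 460 were above 0. Without tofogliflozin replicate 2, 2 were below 0 and 10 above, and the median was 0.016. Over all tested, 230 of 488 were then above 0, with a median of -0.018. Several of the 10 were very close to 0, such as miR-27b-3p (0.0041) and miR-26b-5p (0.0089), so the count of signs says little.

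Within that list, miR-103-3p, a regulator of insulin sensitivity, was farthest above 0. It stood at 1000, 1686 and 659 CPM with tofogliflozin, against 780, 711 and 862 CPM on the diet alone. As for miR-210-3p, the highest and the lowest library were tofogliflozin replicates 2 and 3. Its log2 fold change of 0.51 ± 0.30 (SE) was 0.083 without tofogliflozin replicate 2. miR-27a-3p, a repressor of adipogenesis, was farthest below, at 6158, 3512 and 7552 CPM with tofogliflozin, against 7637, 9188 and 6865 CPM on the diet alone. Its log2 fold change was -0.46 ± 0.26 (SE), and -0.20 without tofogliflozin replicate 2, the library where it was lowest. miR-26a-5p (-0.025 ± 0.10, SE, and 0.012 with library totals alone as the scale) and miR-23a-3p (0.049 ± 0.20, SE) differed least, at 0.022 and 0.16 without tofogliflozin replicate 2. In 1 of the 12, miR-181b-5p, the groups did not overlap, where this holds for 12% of all tested miRNAs. It had 408, 435 and 379 CPM with tofogliflozin, against 279, 336 and 354 CPM on the diet alone, and an adjusted p of 0.854 in edgeR's test. Its log2 fold change was 0.34 ± 0.14 (SE), and 0.29 without tofogliflozin replicate 2.

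**Figure D4:**
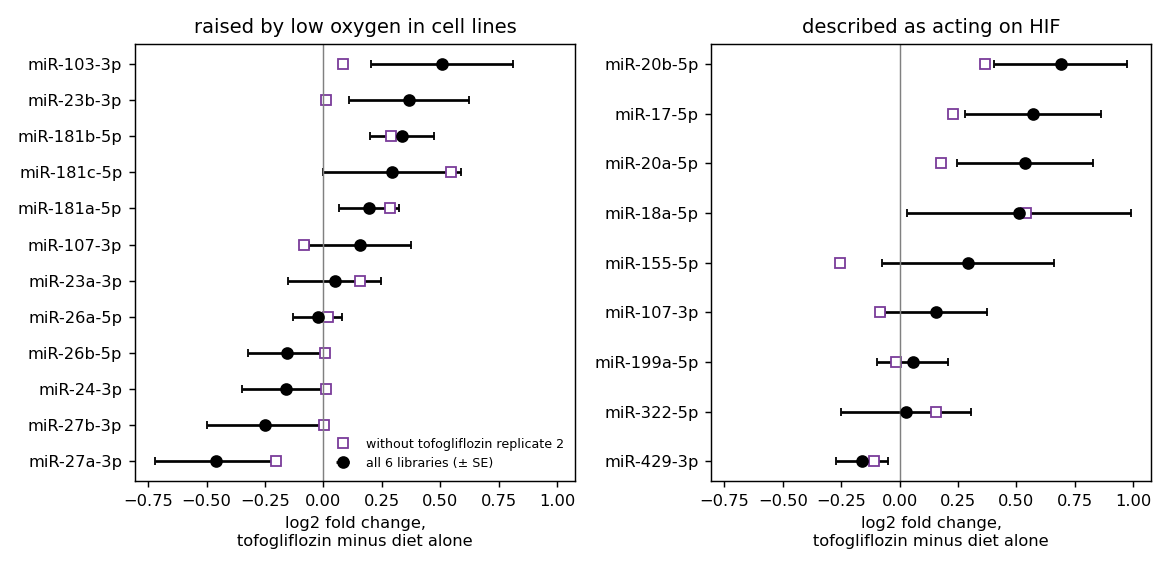
Log2 fold changes (tofogliflozin minus diet alone) of miRNAs raised by low oxygen in cell lines (left) and of miRNAs described as acting on HIF (right). Filled circles with SE are all 6 libraries and open squares leave out tofogliflozin replicate 2. miR-20b-5p, the highest on the right, is at 0.69 with and 0.36 without that library.

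The second list holds 9 miRNAs described as acting on HIF subunits or their turnover, and so stands upstream of miR-210. miR-107-3p is on both lists. All 9 passed the filter, and 0 were called against 0% of all tested miRNAs. Of the 9, 1 was below 0 and 8 above (median 0.29), beside 226 of 460 above 0 and a median of -0.0052 over all tested. The members are described as acting on HIF in different directions, so a shared sign has no single meaning for it. Without tofogliflozin replicate 2, 5 were above 0 and 4 below, and the median was 0.16, beside 230 of 488 above 0 and a median of -0.018 over all tested. Without tofogliflozin replicate 3 the median was 0.63, beside 0.026 over all tested. miR-20b-5p, described as a repressor of HIF-1 alpha, was farthest above 0. It stood at 14.4, 23.0 and 11.2 CPM with tofogliflozin, against 10.5, 8.48 and 10.8 CPM on the diet alone. The groups did not overlap, as for 5% of tested miRNAs in the higher direction, with a log2 fold change of 0.69 ± 0.29 (SE), 0.36 without tofogliflozin replicate 2, and an adjusted p of 0.854 in edgeR's test. miR-17-5p, of the oncogenic cluster named after it, followed at 0.57 ± 0.29 (SE), and 0.23 without that library. Next came miR-20a-5p (0.54) and miR-18a-5p (0.51) of the same cluster, at 0.18 and 0.54 without that library. The members farthest above 0 are thus related and do not count as separate observations. miR-17-5p shares most of its sequence with miR-20b-5p and miR-20a-5p, so that reads can pass between them. miR-429-3p, of the epithelial miR-200 family, was the 1 member below 0. It was at 840, 739 and 799 CPM with tofogliflozin, against 853, 885 and 917 CPM on the diet alone, without overlap, as for 6.96% of tested miRNAs in the lower direction, and its log2 fold change was -0.16 ± 0.11 (SE). miR-322-5p (0.026 ± 0.28, SE), whose human counterpart miR-424 is described as stabilising HIF alpha, and miR-199a-5p (0.056 ± 0.15, SE), another repressor of HIF-1 alpha, differed least. Without tofogliflozin replicate 2, miR-322-5p was at 0.16, miR-199a-5p at -0.015 and miR-429-3p at -0.11.

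The miRNAs whose levels followed miR-210-3p most closely were picked by the highest Pearson r of log2 CPM over the 6 libraries, as a description of these libraries only. They were miR-221-5p (r = 0.98), miR-224-5p (0.98), miR-190a-5p (0.97), miR-221-3p (0.97) and miR-425-5p (0.97). miR-221-5p stood at 97.0, 209.5 and 42.1 CPM with tofogliflozin, against 55.8, 68.3 and 75.8 CPM on the diet alone. miR-224-5p stood at 109.3, 159.1 and 88.1 CPM with tofogliflozin, against 88.3, 106.2 and 107.01 CPM on the diet alone. All 5 were highest in tofogliflozin replicate 2. Over the 5 libraries without it, r was 0.95, 0.98, 0.95, 0.92 and 0.91 in the order named. These 5 libraries were also among the 6 used to pick the miRNAs, so the values are no separate support. An r over 0.9 with miR-210-3p was found for 29 of the other tested miRNAs over 6 libraries and for 15 over 5, with 11 in both. All points share their library totals, and miR-221-5p and miR-221-3p come from 1 hairpin. None of the 5 was called (adjusted p from 0.854 to 0.969 in edgeR's test).

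**Figure D5:**
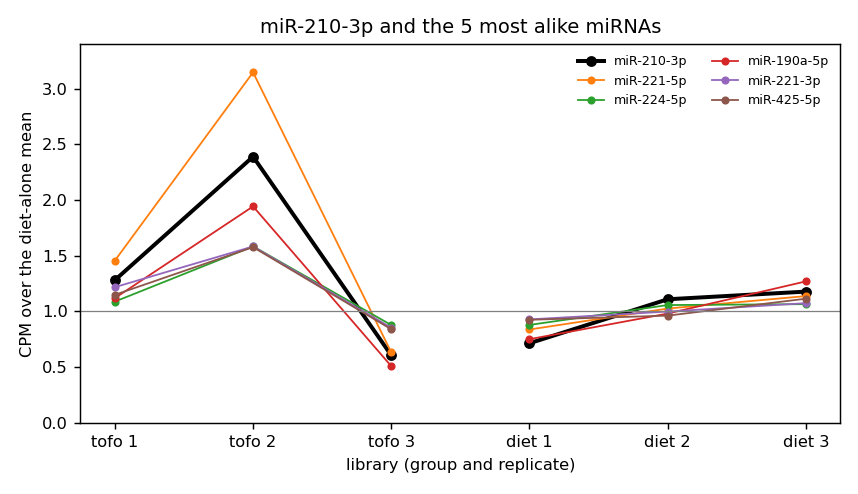
CPM of miR-210-3p and of the 5 miRNAs most like it, divided by each one's diet-alone mean, per library. Lines join the values of 1 miRNA within a group and do not mark an order of mice. All 6 miRNAs are highest in tofogliflozin replicate 2, and miR-210-3p reaches 108.9 CPM there.

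Markers of other cells were read beside miR-210-3p, since tofogliflozin replicate 2 sets its mean. The 5 erythroid miRNAs all had counts in every library. Their summed level was 165 to 451 CPM with tofogliflozin, highest in replicate 2, and 91.3 to 326 CPM on the diet alone. That sum is mostly miR-486-5p (212 CPM in tofogliflozin replicate 2) and miR-3107-5p (227 CPM there), the latter listed in the place of miR-486b-5p. These 2 names had near-equal levels in every library (42.9 and 44.7 CPM in diet-alone replicate 1). The sum may therefore hold largely the same reads more than once, and the 2 are not read as separate markers. The red cell miRNA miR-451a was not highest in tofogliflozin replicate 2, at 14.7, 11.3 and 7.69 CPM with tofogliflozin and 3.52, 9.73 and 13.0 CPM on the diet alone. miR-144-3p was highest of the 6 libraries there, at 1.04 CPM against 0.220 to 0.666 CPM in the others. miR-144-5p was not (0.447 CPM, against 0.666 CPM in tofogliflozin replicate 1). Both miR-144 arms were close to the detection limit and did not pass the filter on low counts. Of the hepatocyte markers, miR-122-3p was at 0 in every library, while miR-122-5p stood at 49.3, 245 and 45.8 CPM with tofogliflozin and at 40.7 to 78.6 CPM on the diet alone. The summed level of the 2 smooth muscle and pericyte markers was 31844 to 58500 CPM with tofogliflozin, lowest in replicate 2, and 52573 to 57181 CPM on the diet alone. That sum is mostly miR-143-3p (31421 CPM in tofogliflozin replicate 2), while miR-145a-5p was highest of the 6 libraries there, at 423 CPM against 316 to 363 CPM in the others. The 2 endothelial markers were both lowest in tofogliflozin replicate 2 and summed to 15286 to 20925 CPM with tofogliflozin and 18258 to 22210 CPM on the diet alone. Summed leukocyte markers, 5 of 5 with counts in every library, were at 89.6 to 107 CPM with tofogliflozin, highest in replicate 2, and at 99.0 to 148 CPM on the diet alone. Of these, miR-150-5p (46.8 CPM) and miR-142-5p (9.69 CPM) were lowest of the 6 libraries in tofogliflozin replicate 2. miR-142-3p was highest of the 6 there (11.9 CPM). miR-342-3p (34.2 CPM) and miR-223-3p (4.03 CPM) were highest there among the tofogliflozin libraries only. The 5 striated muscle markers (summed to 92.8 to 122 CPM with tofogliflozin, lowest in replicate 2, and 99.5 to 129 CPM on the diet alone) lacked miR-208b-3p in every library. That sum is mostly miR-1a-3p (88.4 CPM in tofogliflozin replicate 2). miR-133a-3p was highest of the 6 libraries there, at 2.09 CPM against 0.293 to 1.28 CPM in the others. miR-499-5p (0.597 CPM) was lowest there and miR-206-3p (1.64 CPM) was not. The 4 neuroendocrine markers (1729 to 3837 CPM with tofogliflozin, highest in replicate 2, and 2517 to 2739 CPM on the diet alone) lacked miR-124-3p. Within the last list, miR-7a-5p was highest in tofogliflozin replicate 2 (3285 CPM), whereas miR-375-3p was lowest there (142 CPM, against 157 to 188 CPM in the other libraries). The part of these markers in the level of miR-210-3p was not tested.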

How the data were processed

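Small RNA of renal cortex was sequenced from 6 mice, 3 per group. Per the labels' protocols, RNA came from a NucleoSpin miRNA kit and libraries from a NEBNext small RNA kit. Cutadapt 1.14 and build mm10 are named in the submitters' processing notes. Which aligner, counter and miRBase release were used is not given in the sources used here. Whole-number read counts, not normalized, were deposited by the authors in 2033 rows per library. Of 1900 names, 75 had several rows and the largest count was taken. Each miR-210 arm had 1 row.

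Groups were compared as tofogliflozin minus diet alone by the 2-sided quasi-likelihood test of edgeR 4.0.16 under R 4.3.3 (TMM scaling, filterByExpr with a smallest count of 10 and total of 15, Benjamini-Hochberg adjustment over 460 miRNAs, threshold 0.05). Standard errors were derived from the log2 fold change and its F statistic. Log2 CPM used a prior count of 2. Permutation tests were exact and 2-sided, over 20 arrangements for 3 against 3 mice and 10 for 2 against 3. Those of the correlations with library total ran over all orders of the 6 libraries. The edgeR test was tested on simulated data of 460 miRNAs with 200 changed: it recovered 72.9% of 2-fold and 99.7% of 4-fold changes. All simulated miRNAs had the same spread between mice (coefficient of variation 25.1%), and no library was made to stand apart. These shares therefore do not give the chance of calling a change in miR-210-3p, whose spread was wider than that of most miRNAs. Hairpin folding used RNAfold 2.7.2. DESeq2 1.42.0 and limma 3.58.1 (voom) were alternatives, beside other scalings, filters and row merging.

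The miRNAs named are the arms of miR-210, the most and least changed of 2 hypoxia lists, the 5 most like miR-210-3p and its neighbours by level. miR-181b-5p, miR-204-5p and miR-429-3p were named after their values were seen. The members and lists were chosen with earlier results of these data known. The labels number mice 1 to 3 in each group. Nothing in them pairs the mice.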

Additional observations from a re-analysis of the deposited data

How the results depend on the processing

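The log2 fold change of miR-210-3p (0.50) passed the threshold under none of the alternatives run. It turned below 0 without tofogliflozin replicate 2 (-0.085) and, in a fit chosen after seeing the data, with log2 library total as a covariate (-0.32). Over the fits that leave out 1 library it lay between -0.085 and 0.90, and limma-voom gave 0.26. Under the other planned settings it lay between 0.35 and 0.55, the lower end with the replicate number as a block (adjusted p = 0.961). The block fit called 0 miRNAs, as the fit without it, with 10 and 23 at an unadjusted p under 0.05. Deviations from the group means were not shared by same-numbered mice (r = 0.0027, -0.14 and -0.17), so the numbers are not read as pairs. The count of called miRNAs was 0 in edgeR with the filter and in limma-voom, but 10 of 1026 with no filter on low counts and 2 with DESeq2. miR-210-3p was in neither (adjusted p = 0.717 without the filter, with an unadjusted p of 0.0342, and 0.961 with DESeq2). The median of the list acting on HIF was 0.63 without tofogliflozin replicate 3 and lay between 0.16 and 0.63 over all fits leaving out 1 library, against 0.016 to 0.20 for the hypoxia-raised list. For the list acting on HIF, lower values came with limma-voom (0.088), the covariate (0.10) and the block (0.15), against 0.29. The difference in arm ratio (1.07) lay between 0.48 and 1.91 with 1 library left out and from 0.57 to 1.24 with another pseudocount, and the block left it at 1.07. For miR-210-5p, which the filter removed under other scalings and tests, a fit with no filter gave 1.93 (adjusted p = 0.844), and differences in mean log2 CPM lay between 0.30 and 1.15 with 1 library left out. The cause of these changes was not tested. miR-210-5p has 0 to 4 reads a library, and with 3 mice a group no exact p of a group comparison can be under 0.1.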
